A study of Homo sapiens with 3 samples.

Results

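The p38 kinase pathway was described here through 10 genes chosen by name, MAP2K3, MAP2K6, MAPK11, MAPK12, MAPK13, MAPK14, MAPKAPK2, MAPKAPK3, MAPKAPK5 and ZFP36, out of 39320 gene rows on the main chromosome references. Each of the 10 names had 1 row in the tables. The RNA came from 3 libraries, replicates 1 to 3, all labelled as wild-type HepG2. This is an established line of human liver cancer cells, and the labels give no treatment and no other condition. The study asked how splice variants of METTL3, the catalytic subunit of the m6A methyltransferase, act in liver cancer cells, and it names MAPKAPK2 among tumour genes whose mRNA METTL3 was known to regulate. Nothing in the labels says whether the libraries came from separate cultures, so the spread between them may be technical. The values are TPM, a transcript abundance that is scaled for gene length and to the same total in each library. Depth relative to replicate 3 was 1.16 in replicate 1 and 1.12 in replicate 2, judged from the highest ratio of coverage to FPKM.

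The libraries did not carry the RNA by which liver cells are recognised. Of 8 genes for proteins secreted by hepatocytes, 0 reached 1 TPM in any library, the summed TPM of the list was between 0.0571 and 0.244, and ALB, APOA1, APOB, SERPINA1 and FGB were listed at 0 in all 3 libraries. Of 5 mesenchymal genes, 3 reached 1 TPM in each library, with a summed TPM of 694 to 784 that came mostly from VIM. CDH2 was at 27.1 ± 1.58 TPM and COL1A2 at 0.0210 ± 0.0231 TPM (SD, n = 3), while SPARC was listed at 0. Of 5 blood cell genes, 0 reached 1 TPM, the sum was 1.21 to 1.56 TPM, and PTPRC and LYZ were listed at 0. The background at 1 TPM in every library was 33.8% of all gene rows and 59.5% of protein-coding rows. The 3 of 5 mesenchymal genes are therefore near the share of protein-coding rows. HepG2 cells are known to make albumin, apolipoproteins and other secreted liver proteins, so the label of these libraries is in doubt. The levels below are those of the libraries labelled HepG2 and may not be those of HepG2 cells.

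The p38 kinases are stress-activated protein kinases that respond to inflammatory cytokines, osmotic stress and DNA damage. They are switched on when the MAP2K enzymes MAP2K3 and MAP2K6 phosphorylate a threonine and a tyrosine in their activation loop, and they in turn phosphorylate the kinases MAPKAPK2, MAPKAPK3 and MAPKAPK5. MAPKAPK2 then phosphorylates ZFP36, also known as tristetraprolin, a protein that binds AU-rich elements in mRNA and promotes their decay, and so lets cytokine mRNAs persist. RNA-seq measures the RNA of these kinases and not their phosphorylation.

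The relay runs from loop to loop, so the coding sequence of the activation loop is shown for each kinase, with the codons of the phosphorylated residues in capitals (in the p38 kinases the glycine codon between them is included). The sequences are from the transcript marked as canonical in GENCODE v44, on GRCh38, read 5′ to 3′ on the coding strand, and each lies within 1 coding exon. In the p38 kinases the capitals are the threonine-glycine-tyrosine motif, residues 180 to 182 of MAPK11, MAPK13 and MAPK14 and 183 to 185 of MAPK12, and each stretch is in exon 7 of 12. MAPK14 is p38 alpha, MAPK11 p38 beta, MAPK12 p38 gamma and MAPK13 p38 delta.
MAPK14 (chr6:36075854-36075898, plus strand): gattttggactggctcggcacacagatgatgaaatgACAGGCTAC
MAPK11 (chr22:50266998-50267042, minus strand): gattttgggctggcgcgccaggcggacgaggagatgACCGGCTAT
MAPK12 (chr22:50256149-50256193, minus strand): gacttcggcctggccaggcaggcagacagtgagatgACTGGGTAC
MAPK13 (chr6:36136662-36136706, plus strand): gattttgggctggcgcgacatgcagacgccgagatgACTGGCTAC

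Over these 45 bases the identity between p38 genes ran from 71.1%, for MAPK12 with MAPK11 and with MAPK14, to 84.4%, for MAPK11 with MAPK13. The same stretch of the activating MAP2Ks, in exon 8 of 12, has a serine codon and a threonine codon in capitals, residues 218 and 222 of MAP2K3 and 207 and 211 of MAP2K6, and it was identical at 39 of 45 bases.
MAP2K3 (chr17:21304479-21304523, plus strand): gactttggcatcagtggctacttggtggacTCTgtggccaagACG
MAP2K6 (chr17:69523567-69523611, plus strand): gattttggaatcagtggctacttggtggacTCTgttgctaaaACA

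In the MAPKAPK kinases the capitals mark the codon of the threonine that p38 phosphorylates in the activation loop, residue 222 of MAPKAPK2, 201 of MAPKAPK3 and 182 of MAPKAPK5. The stretches differ in length, at 54, 51 and 48 bases.
MAPKAPK2 (chr1:206730026-206730079, plus strand, exon 5 of 10): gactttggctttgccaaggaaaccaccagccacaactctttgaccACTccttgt
MAPKAPK3 (chr3:50644463-50644513, plus strand, exon 6 of 11): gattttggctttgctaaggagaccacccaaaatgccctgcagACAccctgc
MAPKAPK5 (chr12:111871106-111871153, plus strand, exon 7 of 14): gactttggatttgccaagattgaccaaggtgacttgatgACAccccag

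The likeness of these genes bears on how well reads of 150 bp can be told apart between them. The longest exact run shared by the annotated transcripts of any 2 of the 10 genes was 43 bases, between MAPKAPK5 and MAPK12, and within the families it was 38 bases, between MAPKAPK2 and MAPKAPK3. Genes outside the list were also compared. The MAP2K3 transcript aligned a second time, on chromosome 17 from 21772755 to 21783461, with 97.2% identity over 1431 aligned bases, so reads could have been shared with that copy and its level is less certain. No second alignment was returned for the other 9 genes. In GENCODE, transcripts of MAPK12 run on into the neighbouring HDAC10 and share long exact stretches with it, while in the tables the rows of MAPK12 and HDAC10 do not overlap. Shorter exact stretches of MAPK12 transcripts also occur in genes on other chromosomes, among them FOXK1 on chromosome 7 and RACK1 on chromosome 5. Part of MAPK12 and MAPKAPK5 is annotated in more than 1 gene, since MAPKAPK5 also shares such stretches with the pseudogene ADAM1A, which lies within its row and had 0.00424 TPM on average. MAPKAPK5 shares fewer of them with ENSG00000292259, also on chromosome 12.

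Of the 10 genes, 9 reached 1 TPM in each of the libraries, and MAPK13 was the exception. The background was 33.8% of all gene rows on the main references and 59.5% of the 18743 protein-coding rows among them. The mean levels ran from 0.549 TPM for MAPK13 to 111 TPM for MAP2K3. The median over the 10 was 26.2 TPM, against 15.4 TPM over the 13785 rows with a mean of at least 1 TPM. These sets differ, since MAPK13 is below that mean and the 13785 rows are not limited to protein-coding genes.

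**Figure D1:**
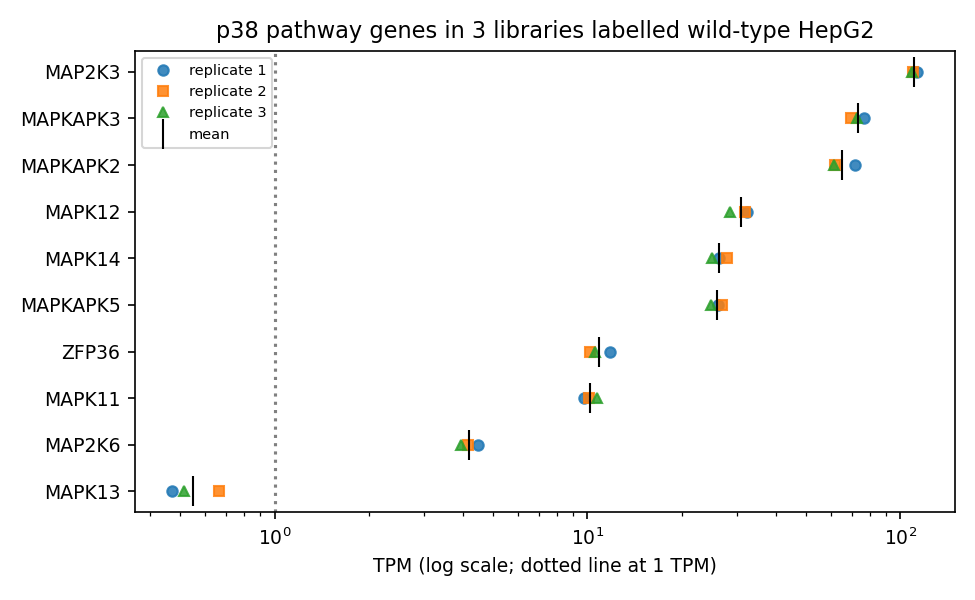
TPM of the 10 genes (log axis) in replicates 1, 2 and 3, with the mean as a vertical bar and genes in the order of their means. MAP2K3 lies highest at 109 to 113 TPM, MAPK13 is below the dotted line at 1 TPM in all 3 libraries, and the libraries lie close together compared with the distances between most genes.

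At the head of the relay, MAP2K3 and MAP2K6 stood far apart. MAP2K3 (chromosome 17, 21284656 to 21315240, plus strand) had 113, 110 and 109 TPM in replicates 1, 2 and 3, a mean of 111 ± 2.40 TPM (SD, n = 3). By TPM it had the highest mean of the 10 genes and exceeded 90.2% of the rows with a mean of at least 1 TPM. Reads could have been shared with the copy described above, so this level is less certain. MAP2K6 (chromosome 17, 69414697 to 69553865, plus strand) had 4.46, 4.14 and 3.96 TPM, a mean of 4.18 ± 0.254 TPM (SD, n = 3). Every library of MAP2K3 was above every library of MAP2K6, and MAP2K3 made up 96.4% ± 0.139 (SD, n = 3) of their summed TPM. The log2 ratio of MAP2K3 to MAP2K6 on the log2(TPM + 1) scale was 4.43 ± 0.04 (SD, n = 3). Deposited coverage is taken here as a read depth, and how it was averaged over a gene is not given. By coverage the ratio was 2.52 on the log2(coverage + 1) scale. MAP2K3 was then number 3 of the 10 genes and exceeded 67.7% of the rows with a mean of at least 1 TPM.

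By TPM, MAPK12 and MAPK14 made up most of the RNA of the p38 kinases and MAPK13 almost none. By coverage, MAPK11 was above MAPK14, as given below. MAPK12 (chromosome 22, 50252901 to 50261810, minus strand), best known from skeletal muscle, had 32.3, 31.8 and 28.6 TPM in replicates 1, 2 and 3, or 30.9 ± 1.99 TPM (SD, n = 3). MAPK14 (chromosome 6, 36027677 to 36122964, plus strand), the broadly expressed isoform to which most p38 inhibitors were made, had 26.3, 28.0 and 25.0 TPM, or 26.4 ± 1.50 TPM (SD, n = 3). The lowest library of MAPK12 was above the highest of MAPK14, by less than 1 TPM.

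MAPK11 (chromosome 22, 50263713 to 50270393, minus strand), the closest relative of MAPK14, had 9.72, 10.1 and 10.8 TPM in replicates 1, 2 and 3, or 10.2 ± 0.524 TPM (SD, n = 3). MAPK13 (chromosome 6, 36130484 to 36144524, plus strand), an isoform known from epithelia and immune cells, had 0.471, 0.664 and 0.513 TPM, or 0.549 ± 0.102 TPM (SD, n = 3). MAPK11 was above MAP2K6 and MAPK13 in every library, and MAPK13 was below all the other genes of the list in every library.

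The p38 genes lie in pairs, and the neighbours of a pair did not have like levels. In the tables, MAPK14 and MAPK13 are on the same strand of chromosome 6 with 7519 bp between their rows, and MAPK14 had 48.1 times the mean TPM of MAPK13 but 4.81 times its mean coverage. MAPK12 and MAPK11 are on the same strand of chromosome 22 with 1902 bp between them, and both were above 9 TPM in every library.

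Within each library the level of MAPK14 was set against the other p38 kinases on the log2(TPM + 1) scale. The log2 ratio was 4.15 ± 0.06 to MAPK13, 1.29 ± 0.13 to MAPK11 and -0.22 ± 0.06 to MAPK12 (SD, n = 3). All 3 libraries gave the same sign in each. Flipping the signs in an exact permutation test (two-sided) gave p = 0.25 for all 6 ratios within families of the pathway. Adjusted over the 6 by Benjamini-Hochberg they were also 0.25, the smallest p possible with 3 libraries.

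Of the summed TPM of the 4 p38 genes, MAPK12 held 45.4% ± 1.47, MAPK14 38.8% ± 0.784, MAPK11 15.0% ± 1.36 and MAPK13 0.805% ± 0.129 (SD, n = 3). By coverage the share of MAPK14 was 5.87% ± 0.0238 and that of MAPK12 was 69.2% ± 2.48 (SD, n = 3). The log2 ratio of MAPK14 to MAPK11 then turned, from 1.29 by TPM to -1.94 by coverage, and MAPK12 was 11.8 times as high as MAPK14 by mean coverage. The order of MAPK14 among the p38 kinases therefore rests on the unit that is read.

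**Figure D2:**
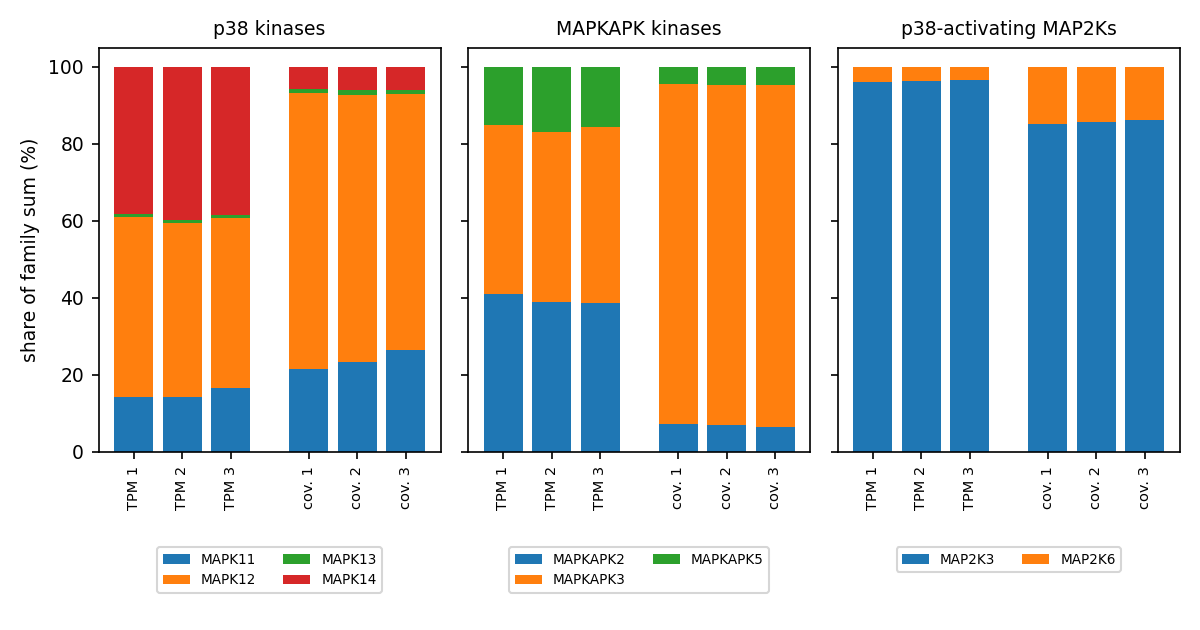
Share of each gene (%) in the sum of its family in replicates 1, 2 and 3, by TPM (left bars) and by deposited coverage (right bars, cov.). The share of MAPK14 among the p38 kinases is 38.8% by TPM and 5.87% by coverage, that of MAPKAPK2 among the MAPKAPK kinases is 39.6% and 6.80%, and MAP2K3 holds most of its pair by both.

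MAPKAPK2 (chromosome 1, 206684912 to 206734285, plus strand) had 71.7, 61.6 and 61.5 TPM in replicates 1, 2 and 3, a mean of 64.9 ± 5.85 TPM (SD, n = 3). Replicate 1 was the highest and the other two were alike. Its coefficient of variation, 9.01%, was the highest among the 8 members averaging 10 TPM or more. By mean TPM, MAPKAPK2 ranked 2327th of 13785 and exceeded 83.1% of the rows with a mean of at least 1 TPM. Its deposited FPKM was 33.9, 29.5 and 29.5, and its deposited coverage 28.7, 24.6 and 21.2.

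MAPKAPK3 (chromosome 3, 50611862 to 50649297, plus strand), the nearest relative of MAPKAPK2 and able to take over part of its work, had 76.7, 69.6 and 72.6 TPM in replicates 1, 2 and 3, or 73.0 ± 3.58 TPM (SD, n = 3). It was above MAPKAPK2 in 3 of 3 libraries when each library was read by itself, while the ranges of both genes over the libraries overlapped. The log2 ratio of MAPKAPK2 to MAPKAPK3 was -0.17 ± 0.07 (SD, n = 3) on the log2(TPM + 1) scale.

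MAPKAPK5 (chromosome 12, 111841978 to 111902225, plus strand), a kinase also bound by the atypical MAP kinases ERK3 and ERK4, had 26.1, 26.9 and 24.9 TPM, or 26.0 ± 1.00 TPM (SD, n = 3). All its libraries were below those of MAPKAPK2, with a log2 ratio of MAPKAPK2 to MAPKAPK5 of 1.29 ± 0.13 (SD, n = 3) on the log2(TPM + 1) scale. By coverage the ratio was 0.55 ± 0.11 (SD, n = 3) on the log2(coverage + 1) scale. The row of MAPKAPK5-AS1 overlaps that of MAPKAPK5 over 1028 bp on the opposite strand and had 11.9 ± 0.895 TPM (SD, n = 3), and the strand setting of the counting is not given in the sources used here, so reads of that stretch could belong to either gene. The row of TMEM116, also on the opposite strand, overlaps it over 7346 bp and had 3.47 ± 0.0466 TPM (SD, n = 3).

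MAPKAPK2 held 39.6% ± 1.31 of the summed TPM of the 3 MAPKAPK genes, MAPKAPK3 44.6% ± 0.964 and MAPKAPK5 15.9% ± 1.04 (SD, n = 3). By coverage the picture changed as it did for MAPK14. MAPKAPK2 then held 6.80% ± 0.381 and MAPKAPK3 88.6% ± 0.289 (SD, n = 3), and MAPKAPK3 was 13.0 times as high as MAPKAPK2 by mean coverage.

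The difference between the units was not even over the genes. In each library the ratio of coverage to FPKM was divided by its highest value among rows above 1 FPKM. This relative ratio was 1.00 in all libraries for ZFP36, which has 1 curated RefSeq transcript, and between 0.740 and 0.973 on average for MAPKAPK3, MAP2K6, MAPK13, MAPK12 and MAPK11. It was 0.178 for MAP2K3, 0.107 for MAPKAPK5, 0.0930 for MAPK14 and 0.0639 for MAPKAPK2, whose curated RefSeq transcripts number 3, 11, 4 and 2. In replicate 1 only 2.50% of the rows above 1 FPKM had a lower ratio than MAPKAPK2, and the median row was at 0.791. MAPKAPK3, with a ratio of 0.740, also has 3 curated transcripts. When all RefSeq transcripts are counted, MAP2K3, MAPKAPK5, MAPK14 and MAPKAPK2 have 9, 11, 18 and 5. MAPKAPK3 then has 8, MAP2K6 7, MAPK11 3, MAPK12 and MAPK13 2 each, and ZFP36 1. How the coverage of a gene with several transcripts was averaged is not given in the sources used here, and the cause was not tested.

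**Figure D3:**
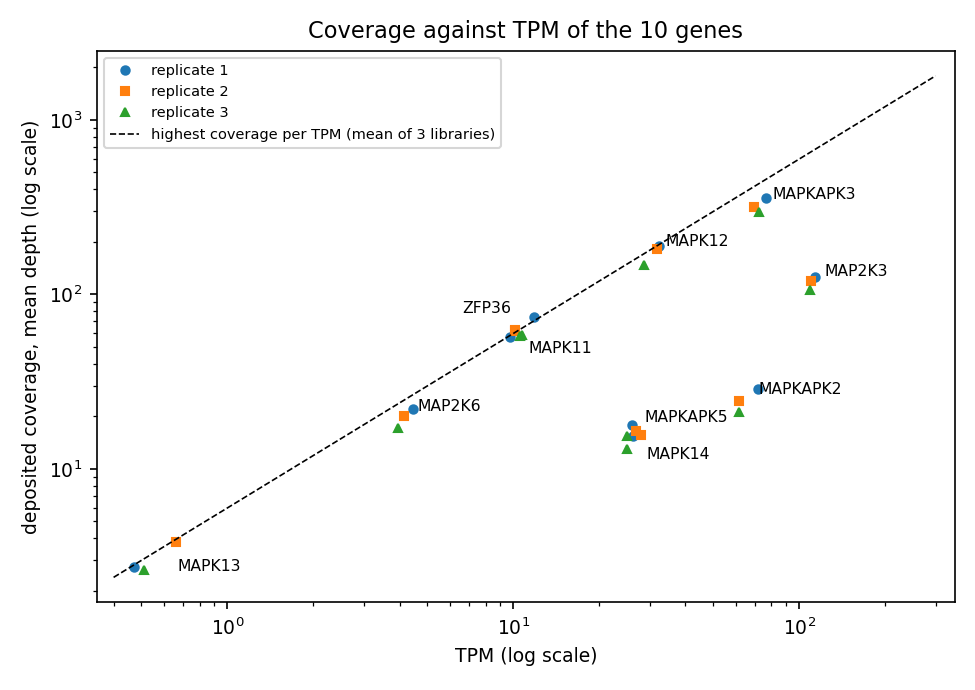
Deposited coverage against TPM of the 10 genes in each library, both on log axes, with a dashed line at the highest coverage per TPM, averaged over the 3 libraries. ZFP36 and the genes MAPK11, MAPK12, MAPK13, MAP2K6 and MAPKAPK3 lie near the line, while MAP2K3, MAPKAPK5, MAPK14 and MAPKAPK2 lie well below it.

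ZFP36 (chromosome 19, 39406847 to 39409405, plus strand), the mRNA-decay factor at the end of the relay, had 11.8, 10.2 and 10.6 TPM in replicates 1, 2 and 3, or 10.9 ± 0.874 TPM (SD, n = 3). Replicate 1 was the highest, and the range of ZFP36 overlapped that of MAPK11. The mRNA of ZFP36 itself carries sites of the kind that the protein binds. The motif TATTTAT was searched on the transcribed strand, and overlapping matches were counted. It occurred 3 times in the last 300 bases of the canonical transcript of ZFP36 and at least once in the same window of 11.7% of 15465 protein-coding genes with a 3′ untranslated region of at least that length. MAPK13 had 1 such match and the other 8 genes had 0 in this window. Over the whole 3′ untranslated region, MAPKAPK5 and MAP2K6 had 3 matches each, as many as ZFP36, in regions of 9161 and 12112 bases against 708 in ZFP36. A 30-base stretch with 2 of the matches in capitals, in the 3′ untranslated part of exon 2 of ZFP36, is shown because ZFP36 is both a regulator and a carrier of this element.
ZFP36 (chr19:39409184-39409213, plus strand): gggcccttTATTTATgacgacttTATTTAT

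In the order of mean TPM, the neighbours MAPKAPK3 and MAPKAPK2, MAPK14 and MAPKAPK5, and ZFP36 and MAPK11 had overlapping ranges over the 3 libraries. The other neighbours did not overlap, and their folds by mean TPM ran from 1.17, for MAPK12 over MAPK14, to 7.62, for MAP2K6 over MAPK13. By mean coverage the order became MAPKAPK3, MAPK12, MAP2K3, ZFP36, MAPK11, MAPKAPK2, MAP2K6, MAPKAPK5, MAPK14 and MAPK13, with MAPKAPK3 at 323 ± 30.5 and MAPK13 at 3.05 ± 0.645 (SD, n = 3).

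The largest range of log2(TPM + 1) over the libraries was 0.22, for MAPKAPK2. The pseudocount compresses this range at low levels, and MAPK13 had the highest coefficient of variation of the 10 genes, 18.5%. Among the 8 members that averaged 10 TPM or more, 0 had a range above 1, against a background of 0.356% of the 8435 rows at that level, so a count of 0 among 8 says little. The median coefficient of variation of the 8 was 5.41%, against 4.88% over all 8435 rows, and the lowest was 2.16% for MAP2K3. Replicate 1 gave the highest TPM for 6 of the 10 genes, and for 62.5% of the 8435 rows.

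The libraries hold 1 condition, so no gene could be matched to MAPKAPK2 by a response. By Euclidean distance of log2(TPM + 1) over the 3 libraries, KCNAB2, PPP1R15B and NFIC were the nearest to it, at distances of 0.03, 0.04 and 0.05. METTL3 had 31.1, 33.6 and 31.5 TPM in the same libraries, and the log2 ratio of MAPKAPK2 to METTL3 was 0.99 ± 0.17 (SD, n = 3) on the log2(TPM + 1) scale, with MAPKAPK2 the higher in all 3.

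The p38 arm was set beside other MAP kinase arms, which share its 3-step plan. The p38 kinases summed to 68.7, 70.5 and 64.9 TPM in replicates 1, 2 and 3. The JNK kinases, encoded by MAPK8, MAPK9 and MAPK10, summed to 60.7, 53.7 and 53.0 TPM, below p38 in every library. By summed coverage p38 was also above JNK, at means of 250.2 and 167.

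One step up, MAP2K3 and MAP2K6 summed to 115 ± 2.65 TPM (SD, n = 3), between the 255 ± 13.5 TPM of MAP2K1 and MAP2K2, which serve the growth factor arm, and the 39.2 ± 1.57 TPM of the JNK-activating MAP2K4 and MAP2K7. By coverage the last comparison turned, with means of 137 for MAP2K3 and MAP2K6 and 160.3 for MAP2K4 and MAP2K7. These sums were compared as values, with no test.

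**Figure D4:**
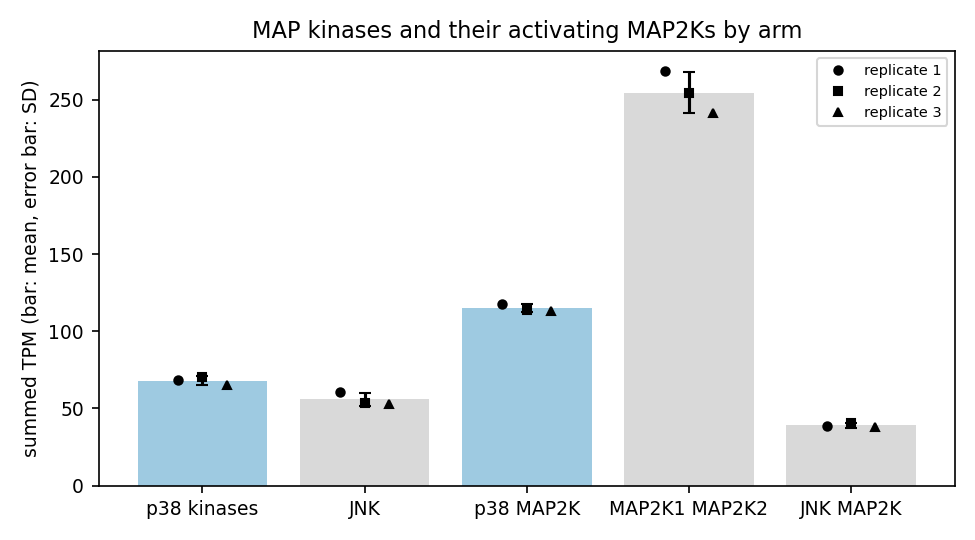
Summed TPM of the p38 and JNK kinases, of the MAP2Ks that activate each, and of MAP2K1 and MAP2K2, with bars for the mean, error bars for the SD and points for the 3 libraries. The p38 sums (blue) lie above those of the JNK arm at both steps, and MAP2K1 and MAP2K2 have the highest sum.

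The list of upstream stress kinases and their adaptors had 16 genes, 15 with at least 1 TPM in every library, and a median of 16.2 TPM. It holds MAP3K-level kinases and also MAP2K4, which is a MAP2K itself and was counted above in the JNK arm. For this list and the pathway lists below, the background at 1 TPM in every library was 33.8% of all gene rows. Among protein-coding rows it was 59.5%. GADD45A, a stress-induced activator of MAP3K4, was the highest at 53.6 ± 3.24 TPM, followed by the kinase TAOK3 at 40.6 ± 2.01 TPM (SD, n = 3). GADD45G, named after its values were seen, was the gene below 1 TPM, at 0.644 ± 0.155 TPM (SD, n = 3).

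All 6 phosphatases that can switch p38 off had at least 1 TPM in every library. DUSP1, an immediate-early phosphatase of the MAP kinases, had 98.4, 98.7 and 94.1 TPM in replicates 1, 2 and 3, with a mean of 97.1 TPM. It was above all 4 p38 kinases in every library and above their sum. DUSP16 followed at 27.5 ± 1.66 TPM (SD, n = 3).

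The 4 other kinases that p38 activates all had at least 1 TPM in every library. RPS6KA4, which encodes the nuclear kinase MSK2, had 78.8 ± 1.15 TPM, and MKNK2, a kinase of the translation factor eIF4E, had 46.4 ± 3.93 TPM (SD, n = 3). Of 8 nuclear substrates, 7 had at least 1 TPM in every library, led by the transcription factors ELK1 with 90.2 ± 1.44 TPM and ATF1 with 37.2 ± 1.71 TPM (SD, n = 3). The eighth, MEF2C, named after its values were seen, was at 0.0304 ± 0.0130 TPM (SD, n = 3).

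Downstream of MAPKAPK2, 7 of 8 listed substrates and proteins of AU-rich element control had at least 1 TPM in every library. HSPB1, the small heat shock protein that MAPKAPK2 phosphorylates, had 952, 1054 and 1037 TPM in replicates 1, 2 and 3, a mean of 1015 ± 54.6 TPM (SD, n = 3). KHSRP, a decay factor for AU-rich mRNAs, followed at 223 ± 6.17 TPM (SD, n = 3), and LSP1, a leukocyte protein, was listed at 0 in all 3 libraries. ZFP36 was the lowest of its small family, below ZFP36L1 at 16.6 ± 1.05 TPM and ZFP36L2 at 37.1 ± 3.17 TPM (SD, n = 3), and the libraries of ZFP36 did not overlap with those of either.

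Of 9 listed inflammatory mRNAs that ZFP36 is known to bind, 3 had at least 1 TPM in every library, beside the background of 33.8% of all gene rows and 59.5% of protein-coding rows. The other 6, TNF, IL1B, IL6, CXCL8, CXCL1 and CSF2, were below 1 TPM in every library, with CXCL1 listed at 0 in all 3. IER3, an early stress-response gene, had 14.3 ± 0.282 TPM, the chemokine CCL2 had 6.23 ± 0.681 TPM, and PTGS2, which encodes the cyclooxygenase COX-2, had 2.35 ± 0.282 TPM (SD, n = 3). Inflammatory mRNAs are low in many cells that were not stimulated. Whether that applies here was not tested, and transcription was not measured.

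**Figure D5:**
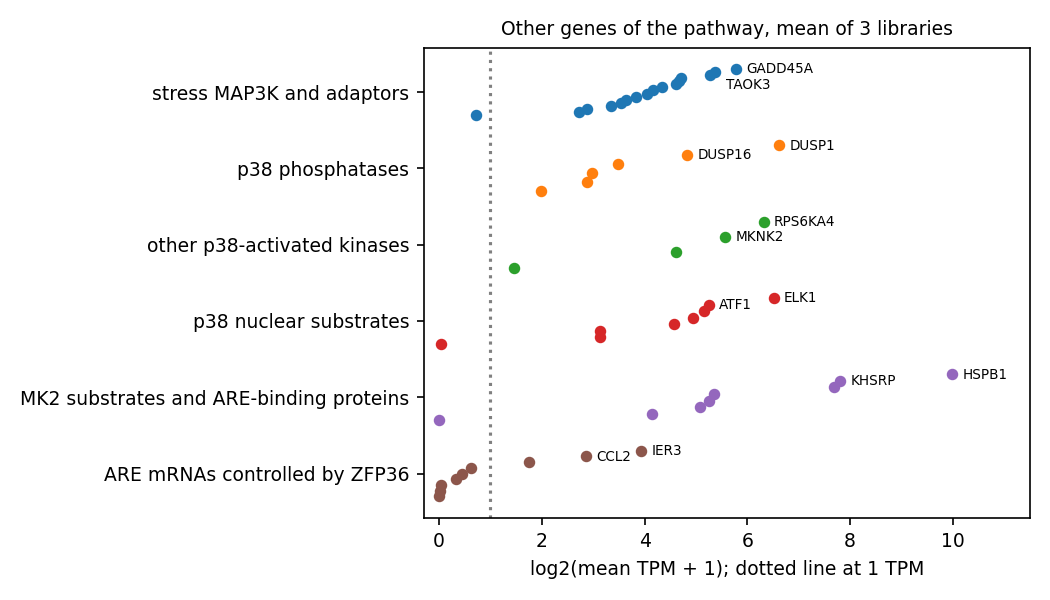
Mean TPM over 3 libraries, as log2(mean TPM + 1), of the other genes of the pathway in 6 lists, each point a gene, with the 2 highest of each list named. Nearly all genes of the first 5 lists lie to the right of the dotted line at 1 TPM, while 6 of the 9 mRNAs with AU-rich elements lie to its left.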

How the data were processed

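RNA from 3 libraries labelled as wild-type HepG2 was analysed. Paired-end reads of 150 bp were filtered by the authors (FastQC 0.11.8, TrimGalore 0.6.2) and mapped to GRCh38 with STAR 2.6.1a. The submitters' processing notes also name StringTie. Its version, annotation and strand setting are not given in the sources used here. Per the file headers, each library has a deposited coverage signal, FPKM and TPM. Coverage was taken as a read depth per gene that is not scaled for library size. Its averaging over a gene is not stated. The deposited TPM has the same total in each library, of which the mitochondrial gene TRNC took 16.9% to 17.2%. No counts are held, so the number of reads is unknown, no counting interval could be given, and precision is the SD over 3 libraries.

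Rows were joined on name, strand and coordinates (43389 rows), and at most 4 rows of a library were left out. TPM was used as deposited, with a pseudocount of 1 on the log2 scale. Within-family ratios were tested by exact sign-flip permutation (two-sided) with Benjamini-Hochberg adjustment. On simulated libraries with 8352 genes, the range calculation recovered 200 of 200 genes raised 4 times in 1 library. A rise of that size is well above the limit for a range, and the simulated noise was low. Recovery was therefore fixed in advance and says nothing about sensitivity to smaller differences. All 10 members were described, and of each pathway list the 2 highest genes and those at 0 were named, together with METTL3 and the 3 genes nearest to MAPKAPK2. ZFP36L1, ZFP36L2, PTGS2, GADD45G, MEF2C, COL1A2 and the inflammatory mRNAs below 1 TPM fall outside this rule and were named after their values were seen. One other MAP kinase arm is not reported here. Members and lists were chosen with earlier results of these data known.

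Activation loops were located in GENCODE v44 canonical transcripts with Biopython 1.88, and second copies were sought in GRCh38 with minimap2 2.31-r1302 (splice preset). Gene positions are those of the deposited rows. They differ from the GENCODE gene ends for most members, by kilobases for MAPK12, MAPK13 and MAPK14. Other tools were Python 3.11.15, numpy 2.4.6, pandas 2.3.3, statsmodels 0.14.6 and matplotlib 3.10.9. Alternatives were leaving out each replicate, another pseudocount, other limits on TPM, the use of FPKM or coverage instead of TPM, and rescaling by median of ratios or after removal of genes encoded on the mitochondrial genome.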

Additional observations from a re-analysis of the deposited data

How the results depend on the processing

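No paired analysis was possible because all 3 libraries belong to a single group. The alternatives for the 9 genes other than MAPKAPK2 were chosen after seeing the data. Scaling without mitochondrially encoded genes raised the mean of MAPKAPK2 from 64.9 to 81.3 TPM and the other 9 means by the same 1.25 times. With each replicate left out, the mean of MAPKAPK2 ranged from 61.6 to 66.7 TPM, its percentile from 82.4 to 83.4, its share of the MAPKAPK sum from 38.8% to 40.0%, and the share of MAPK14 in the p38 sum from 38.4% to 39.1%. The percentile of MAPKAPK2, 83.1, became 87.6 with a minimum mean of 0.1 TPM, 94.6 with no filter, 80.5 among protein-coding genes and 34.2 by coverage. Coverage in place of TPM also moved the share of MAPK14 from 38.8% to 5.87% and that of MAPKAPK2 from 39.6% to 6.80%, and it reversed the log2 ratio of MAPK14 to MAPK11 from 1.29 to -1.94. The cause was not tested. The other 5 log2 ratios kept their direction under every alternative run. The number of the 10 genes expressed was 10 with a limit of 0.1 TPM and 7 with a limit of 10 TPM. The shares of all rows at these limits were not computed, so these counts cannot be set against a background. Over all rows, the number with a range above 1 was 30, and 182 with a minimum mean of 1 TPM, while it ranged from 10 to 23 with a replicate left out and was lowest, at 10, without replicate 2. Leaving out a library cannot widen the range of a row, so a fall from 30 was largely fixed in advance. None of the members was among the rows counted with a minimum of 1 TPM, a pseudocount of 0.1 or median-of-ratios scaling. The unknown depth limits what can be said of MAPK13 and of genes listed at 0.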
